A study of Pinus tabuliformis with 21 samples.

Results

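The 80 gene models described here (of the 84525 in the count table, of which 39403 had at least 1 count) were highest on average after 3 d of ultraviolet light under both UV-B and UV-C in foliage of the Chinese pine Pinus tabuliformis. They were chosen from the same counts that are described here. Levels are CPM, a gene model's count divided by the total of its library and multiplied by 1000000, and L is log2 of a group's mean CPM plus 1. The score of a gene model was the smallest of its rises in L to UV-B 3 d from UV-B 1 d, from UV-B 7 d and from the control, and to UV-C 3 d from UV-C 1 d and from UV-C 7 d. Among the 83064 gene models whose L at UV-C 1 d was at most 0.5 below the control, the 80 highest scores were taken. A score above 0 was reached by 3682 of these, and 7 gene models with a score at or above that of member 80 were kept out by the condition on UV-C 1 d. The differences that make up the score are therefore given as a description and without a test.

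Seedlings aged 2.5 years grew in pots in a greenhouse under fluorescent lamps, and poly(A) RNA of their leaves was sequenced. Control seedlings received no ultraviolet light and were taken at 0 h. Treated seedlings received, in addition to the lamps, either UV-B (280 to 320 nm with a peak at 306 nm, at 280 µW/cm2) or UV-C (230 to 270 nm with a peak at 254 nm, at 28 µW/cm2) for 1, 3 or 7 d. Each of the 7 groups held 3 libraries with between 6177212 and 8560163 counts. No genotype is given for the seedlings. Whether each library came from its own plants is not stated, so the spread among the 3 libraries of a group may be technical. A p-value from the fit of all 21 libraries reflects that spread pooled over the 7 groups. The control has no later time points, so comparisons with it span time as well as irradiation, and the bands differed in intensity as well as in wavelength.

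UV-B is part of sunlight at the ground, and plants perceive it with a photoreceptor that starts the transcription of protective genes such as those of flavonoid synthesis. UV-C does not reach the ground, is absorbed strongly by DNA and damages it, and is applied to plants from germicidal lamps. In both cases leaves are known to switch on genes for repair, protection against oxidants and defence compounds, often from near silence. The count table pairs no identifier with a gene name, a function or a position, so the 80 gene models are described by their identifiers and levels, and the tissue could not be checked against marker genes. By identifier series, 74 carried the prefix PITA, 4 the prefix PITAhm and 2 another form. PITAhm models made up 5% of the 80, beside 3.92% of all gene models with at least 1 count.

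The peak at 3 d was carried by 4 of the 6 libraries of that duration. In all 80 gene models UV-B 3 d replicate 1 was the lowest of its group and UV-C 3 d replicate 3 was the lowest of its group. Over all genes tested, 40.3% and 35.2% were lowest in these libraries. Because group means chose the 80, the order of libraries within the 3 d groups is not independent of the choice. UV-B 3 d replicates 2 and 3 exceeded all 6 UV-B libraries of 1 and 7 d in 80 and 77 of the gene models, and replicate 1 did so in 15, where the shares over all genes tested were 17.4%, 15.5% and 12.1%. UV-C 3 d replicates 1 and 2 exceeded all 6 UV-C libraries of 1 and 7 d in 79 and 80, and replicate 3 did so in 8, where the shares over all genes tested were 18.5%, 26.3% and 15.1%. In 67 of the 80, UV-C 3 d replicate 3 lay below the mean of UV-C 7 d, and the share of all genes was not taken here. The name of a 3 d peak thus fits the group means and not every library labelled 3 d.

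Both libraries also stood apart from their groups over the whole transcriptome. Over 39403 gene models, on log2(CPM + 1), UV-C 3 d replicate 3 had a mean correlation of 0.963 with its own group and 0.985 with UV-C 7 d. UV-B 3 d replicate 1 had a mean correlation of 0.978 with its own group and 0.985 with UV-B 7 d. In every other library except UV-C 1 d replicate 3 the own group came first. These correlations are across genes and carry no test. Their totals of 7569757 and 7054893 counts were within the range of the other libraries, and what sets them apart was not tested. Summed shares, medians at 3 d, differences between bands and counts of calls are given below with and without both.

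Summed over the 80 gene models, the share of all counts was small in the control and far larger in most libraries after 3 d. It was 0.00826%, 0.00761% and 0.0091% in the control replicates 1, 2 and 3. In the UV-B libraries it was 0.101%, 0.173% and 0.0878% after 1 d, 0.132%, 0.762% and 0.602% after 3 d, and 0.0788%, 0.137% and 0.13% after 7 d. UV-B 3 d replicate 1 thus lay among the libraries of 1 and 7 d, while the other replicates of 3 d lay above all of them. In the UV-C libraries it was 0.0185%, 0.0322% and 0.0122% after 1 d, 0.486%, 0.874% and 0.0363% after 3 d, and 0.0934%, 0.0378% and 0.1% after 7 d. UV-C 3 d replicate 3 was below each UV-C 7 d library.

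**Figure D1:**
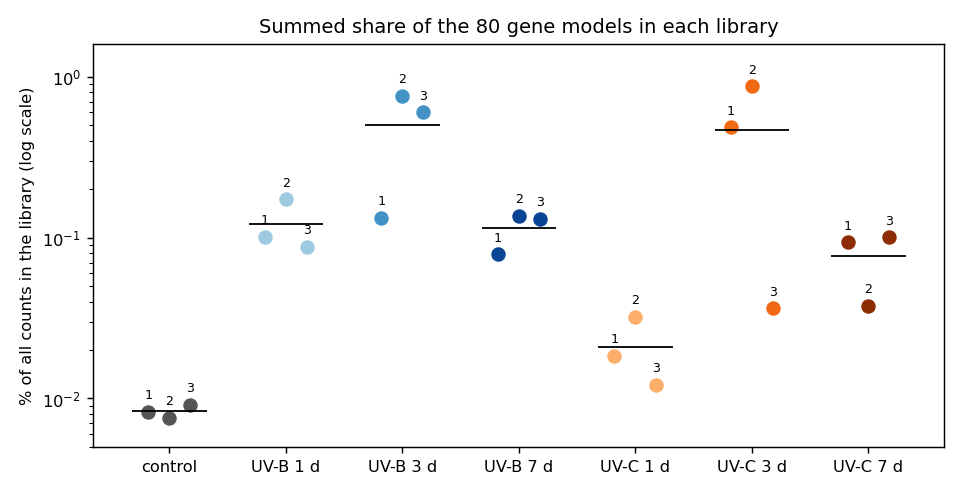
Share of each library's counts taken by the 80 gene models, in percent on a log axis, for the 7 groups; points are libraries numbered by replicate and lines are group means. UV-B 3 d replicate 1 (0.132%) and UV-C 3 d replicate 3 (0.0363%) lie apart from the other 3 d libraries (0.486% to 0.874%).

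Group means of the summed share were 0.00832% ± 0.00075 in the control (SD, n = 3 here and in the next sentences). For UV-B they were 0.121% ± 0.0457 after 1 d, 0.499% ± 0.327 after 3 d and 0.115% ± 0.0318 after 7 d. Under UV-C they were 0.0209% ± 0.0102, 0.465% ± 0.419 and 0.0772% ± 0.0342. Relative to the control the means were 59.9-fold at UV-B 3 d and 55.9-fold at UV-C 3 d, against 14.5-fold and 2.52-fold at 1 d and 13.9-fold and 9.27-fold at 7 d. The highest library of UV-C 3 d held 24.1 times the share of the lowest and that of UV-B 3 d 5.77 times, whereas control libraries differed by 1.2 times. Leaving out the lowest library of each band gave means of 0.682% and 0.68% at 3 d. In whole foliage, more cells that hold a transcript and more transcript per cell cannot be told apart.

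The median spread between replicates of a group was wider in these gene models than over all genes tested, which were not matched for level. The choice used the 3 d means, so the spread at 3 d is not independent of it. The difference between the highest and the lowest library of a group, on log2(CPM + 1), had a median over the 80 of 2.46 at UV-B 3 d and 4.46 at UV-C 3 d, where the medians over all genes tested were 0.48 and 0.56. In groups that the choice held low it was 1.55 at UV-B 1 d, 1.13 at UV-B 7 d, 0.70 at UV-C 1 d and 1.36 at UV-C 7 d, beside 0.53, 0.44, 0.47 and 0.39 over all genes tested. In the control it was 0.48, beside 0.32. Between the 2 higher libraries alone the median was 0.51 at UV-B 3 d and 0.91 at UV-C 3 d. In some groups the gene models tended to be high, or low, in the same library. This was not so in the control, where replicates 1, 2 and 3 were the highest in 17, 21 and 22 of 80. The shares over all genes tested there were 28.9%, 38.5% and 31%. UV-B 1 d replicate 2 was the highest of its group in 52 of 80, beside 31.6% of all genes tested, and UV-C 7 d replicate 2 was the lowest of its group in 58 of 80, beside 36.8%.

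**Figure D2:**
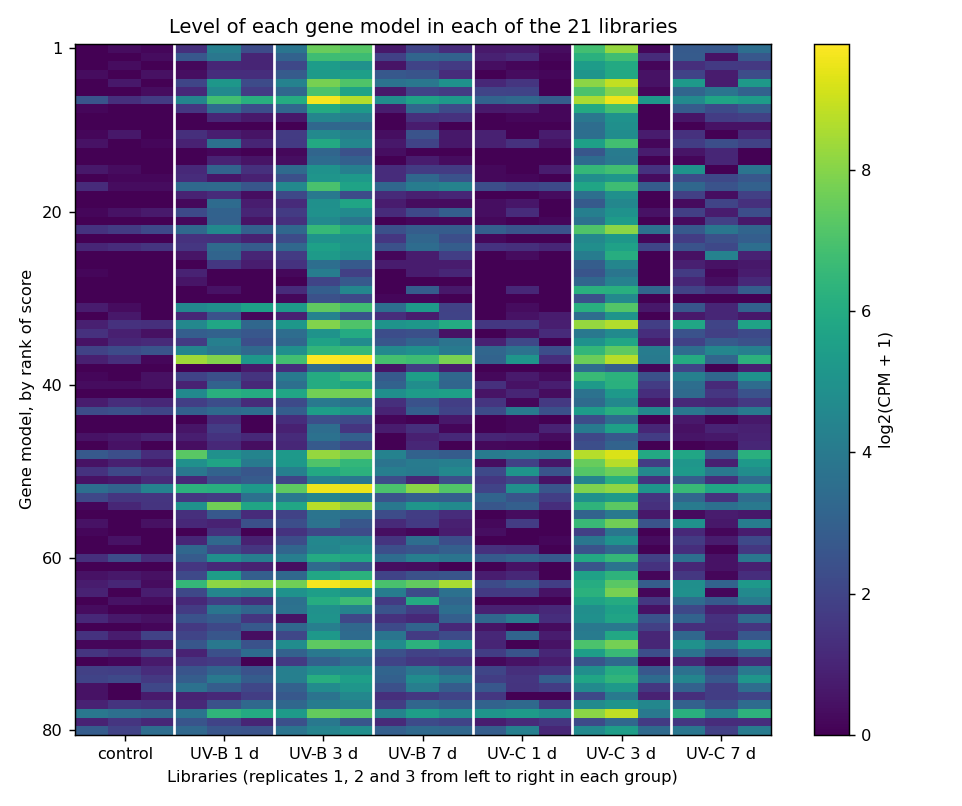
Level of each of the 80 gene models (rows, by rank of score) in each of the 21 libraries (columns, replicates 1 to 3 from left to right in each group), as log2(CPM + 1). The bright columns are UV-B 3 d replicates 2 and 3 and UV-C 3 d replicates 1 and 2, and UV-C 3 d replicate 3 is dark.

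Most of the gene models were nearly silent without ultraviolet light. In the control 20 had 0 counts in all 3 libraries, another 39 had some counts but a mean under 1 CPM, and 21 averaged 1 CPM or more. The median over the 80 of the mean level was 0.237 CPM in the control, 3.9 CPM at UV-B 1 d, 22.1 CPM at UV-B 3 d and 3.99 CPM at UV-B 7 d. It was 0.641 CPM at UV-C 1 d, 27.0 CPM at UV-C 3 d and 4.51 CPM at UV-C 7 d. Without the lowest library of each 3 d group it was 28.9 CPM for UV-B and 38.8 CPM for UV-C. Gene models at 0 in the control had medians of 6.55 CPM at UV-B 3 d and 9.37 CPM at UV-C 3 d, whereas those at 1 CPM or more in the control had 29.2 and 48.8 CPM. Without the lowest libraries these medians were 8.84, 14.1, 39.5 and 68.4 CPM. A mean of 100 CPM or more was reached by 13 gene models at UV-B 3 d and 14 at UV-C 3 d (15 and 20 without the lowest libraries), and the 5 highest held 47.4% and 31.4% of the summed level there.

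The differences that made the choice ranged widely. In L, 3 d minus 1 d had a median of 1.92 under UV-B (range 1.18 to 4.50) and 3.57 under UV-C (1.39 to 6.94). In L, 3 d minus 7 d had medians of 1.94 (1.17 to 5.46) and 2.30 (1.18 to 4.31). Against the control, L at 3 d was higher by a median of 3.82 for UV-B and 4.06 for UV-C. Without the lowest libraries the medians were 2.35 and 4.10 over 1 d, 2.32 and 2.83 over 7 d, and 4.26 and 4.58 over the control, each for UV-B and then UV-C. The score was set by UV-B 3 d minus UV-B 1 d in 35 of the gene models and by UV-B 3 d minus UV-B 7 d in 29. UV-C 3 d minus UV-C 7 d set it in 15 and UV-C 3 d minus UV-C 1 d in 1.

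Even for the differences of 3 d from 1 d and from 7 d within a band the libraries overlapped in most gene models. All 3 UV-B 3 d libraries lay above all 3 of UV-B 1 d in 29 of 80 (12.5% of genes tested) and above all 3 of UV-B 7 d in 39 (12.0%). All 3 UV-C 3 d libraries lay above all 3 of UV-C 1 d in 35 (9.53%) and above all 3 of UV-C 7 d in 8 (16.9%). Since the rule used these differences, nothing is read from the shares. All 3 UV-B 3 d libraries exceeded the 3 controls in 77 (29.1%) and all 3 UV-C 3 d libraries did so in 43 (22.7%).

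PITA_000018739-RA had the highest score, 3.74. Its level was 0, 0.268 and 0.124 CPM in the control. With UV-B it was 1.51, 17.7 and 3.76 CPM after 1 d, 12.9, 184 and 146 CPM after 3 d, and 0.549, 2.96 and 1.33 CPM after 7 d. With UV-C it was 0.573, 0.625 and 0.263 CPM after 1 d, 113, 298 and 0.132 CPM after 3 d, and 5.84, 5.45 and 10.7 CPM after 7 d. UV-B 3 d replicate 1 lay below UV-B 1 d replicate 2, and UV-C 3 d replicate 3 lay within the range of the control.

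The gene models next in score had the same lowest library in each 3 d group. PITA_000083093-RA stood at 7.37, 106.1 and 106.2 CPM at UV-B 3 d and at 72.8, 109 and 1.32 CPM at UV-C 3 d. PITA_000029148-RA stood at 3.4, 41.2 and 30.1 CPM and at 41.3, 59.8 and 0.132 CPM. PITA_000036378-RA stood at 5.95, 39.6 and 45.1 CPM and at 33.2, 59.2 and 0.396 CPM. In each of these UV-C 3 d replicate 3 was below every UV-C 7 d library except, in the first, UV-C 7 d replicate 2. PITA_000074950-RA stood at 19.4, 219.9 and 136 CPM at UV-B 3 d and at 267, 469.6 and 0.396 CPM at UV-C 3 d. PITA_000087901-RA stood at 8.65, 128 and 50.2 CPM and at 129, 253 and 0.132 CPM.

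At the threshold the pattern was weaker and the neighbours were alike. PITA_000031013-RA and PITA_000000213-RA, the last inside, had scores of 1.178 and 1.172, and PITA_000062772-RA and PITA_000053925-RA, the first outside, had 1.172 and 1.151. PITA_000000213-RA stood at 12.5, 19.9 and 27.3 CPM at UV-B 3 d and 24.3, 42.0 and 9.51 CPM at UV-C 3 d, over control levels of 6.25, 2.82 and 10.2 CPM. PITA_000062772-RA stood at 1.7, 12.7 and 8.88 CPM and at 4.53, 20.8 and 0.132 CPM.

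**Figure D3:**
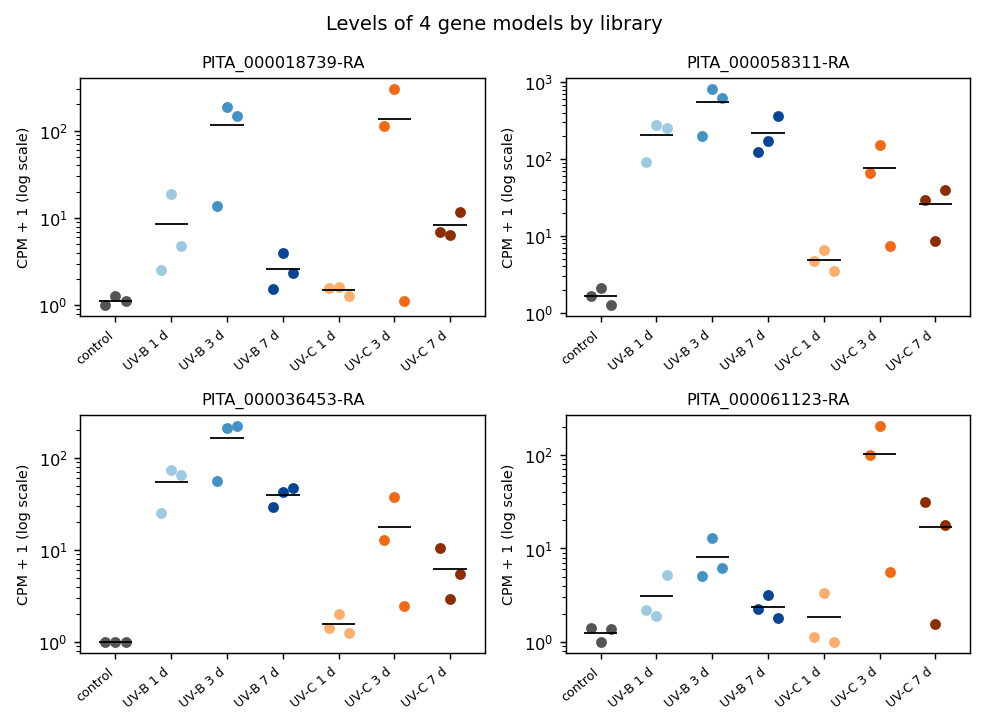
CPM + 1 on a log axis for 4 gene models in the 7 groups; points are libraries and lines are group means. PITA_000018739-RA is high at 3 d in both bands, PITA_000058311-RA and PITA_000036453-RA are higher under UV-B, and PITA_000061123-RA is higher under UV-C at 3 d.

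The bands were then compared at equal duration. No difference between bands was itself a term of the rule. Each can be built from terms of the score and the condition on UV-C 1 d, so it is not independent of the choice. The counts and p-values are therefore a description and no separate support for the pattern. At 1 d the gene models were lower under UV-C than under UV-B. L was lower under UV-C in 72 of 80, higher in 6 and equal in 2, with a median difference of -1.10 (range -5.40 to 0.89), while the median over all gene models with a count was 0. The quasi-likelihood test of edgeR, adjusted by Benjamini-Hochberg over the 18265 genes left by a filter that all 80 passed, called 14 lower under UV-C and 0 higher. Of all genes tested, 11.1% were lower, 10.3% higher and 21.4% either. All 80 passed the filter because the 3 d libraries that chose them count towards it. With only the 1 d libraries of both bands fitted, 44 of the 80 passed and 16 of these were lower. In that fit 11.1% of all genes were called in either direction. The count is therefore not read as a share of the 80. At an unadjusted p under 0.05 in the edgeR fit of all libraries 31 were lower and 0 higher. The share of all genes at that threshold was not taken, so nothing is read from this. DESeq2 called 24 lower and 0 higher, beside 24.8% of all genes in either direction. All 3 UV-C libraries lay below all 3 UV-B libraries in 37 of the 80 (16.4% of genes tested) and above them in 0 (19.4%).

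The size of that count depended on the libraries and the fit. When a library was left out it was 4 (UV-B 1 d replicate 2), 5 (UV-C 1 d replicate 1), 9 (UV-C 1 d replicate 2), 6 (UV-C 1 d replicate 3) or 23 (UV-C 3 d replicate 3). The shares of all genes called in either direction were then 12.3%, 11.8%, 17.5%, 15.1% and 23.4%, beside 21.4% with all libraries. With both lowest 3 d libraries left out, which otherwise enter the shared estimate of spread, it was 32 (24.3% of all genes). Limma voom with 1 quality weight per group called 1 (14.6%). In all of these fits 0 were called higher under UV-C.

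PITA_000036453-RA had no count in any control library. It stood at 24.0, 72.7 and 64.0 CPM at UV-B 1 d and 0.43, 1.0 and 0.263 CPM at UV-C 1 d. It stood at 54.9, 209 and 221 CPM at UV-B 3 d and 11.8, 36.9 and 1.45 CPM at UV-C 3 d, and at 28.4, 41.4 and 46.4 CPM and 9.46, 1.91 and 4.5 CPM at 7 d. The bands did not overlap at any duration. The log2 fold change of UV-C against UV-B was -6.55 (SE 1.09) at 1 d with an edgeR adjusted p of 0.00101, and 0.0827 with limma voom and group weights.

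PITA_000003542-RA gave the largest called difference at 1 d among gene models averaging at least 1 CPM. It stood at 22.2, 27.5 and 46.0 CPM at UV-B 1 d and at 0, 0.25 and 0 CPM at UV-C 1 d. Its 2 counts under UV-C against 675 under UV-B give a ratio of 360-fold, with an exact 95% interval from 99.2 to 2978 that covers counting error only (edgeR adjusted p = 0.00542; 0.449 with limma voom and group weights). At 3 d it stood at 39.3, 166 and 110.1 CPM under UV-B and 71.1, 141 and 0.528 CPM under UV-C, so the bands overlapped.

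At 3 d the bands could be told apart in few gene models. L was higher under UV-C in 50 and lower in 30, with a median difference of 0.26 (range -3.20 to 3.68), and without the lowest library of each band it was higher in 54 and lower in 26, with a median of 0.34. This direction was not stable. The median log2 fold change was 0.31 in edgeR, -0.82 with limma voom and group weights (20 above 0 and 60 below), -0.16 without UV-B 3 d replicate 1 and -0.68 without UV-C 3 d replicate 2. EdgeR called 1 higher and 2 lower, beside 4.54% and 4.05% of all genes tested, or 8.60% in either direction. All 3 UV-C libraries lay above all 3 UV-B libraries in 1 (11.0%) and below them in 2 (14.0%). Given the spread at 3 d, a count this small does not show that the bands were alike. The count of 3 became 0 when UV-B 3 d replicate 2, UV-B 3 d replicate 3 or UV-C 3 d replicate 1 was left out. It was also 0 when only the 6 libraries compared were fitted. The shares of all genes called in these fits were 4.37%, 4.98%, 4.93% and 0.193%. With both lowest 3 d libraries left out it was 3 (4.01%).

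The 3 called at 3 d were PITA_000036453-RA, PITA_000058311-RA and PITA_000061123-RA. PITA_000036453-RA was lower under UV-C with a log2 fold change of -3.23 (SE 0.80, edgeR adjusted p = 0.0214). The adjusted p in edgeR became 0.0628 on leaving out UV-B 3 d replicate 2, 0.0622 for UV-B 3 d replicate 3 and 0.0828 for UV-C 3 d replicate 1, and 0.179 when only the libraries compared were fitted.

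PITA_000058311-RA was among the 3 that took the most counts. Its level was 0.665, 1.07 and 0.248 CPM in the control. In UV-B seedlings it was 90.8, 277 and 249.7 CPM after 1 d, 201, 810.4 and 628 CPM after 3 d, and 123, 172 and 362 CPM after 7 d. In UV-C seedlings it was 3.72, 5.5 and 2.5 CPM after 1 d, 65.9, 153 and 6.34 CPM after 3 d, and 27.9, 7.63 and 38.5 CPM after 7 d. Every UV-B library was above every UV-C library of the same duration. At 3 d the log2 fold change of UV-C against UV-B was -2.82 (SE 0.80, edgeR adjusted p = 0.0369). On leaving out a library the p became 0.109 for UV-B 3 d replicate 2, 0.0799 for UV-B 3 d replicate 3, 0.114 for UV-C 3 d replicate 1 and 0.0521 for UV-C 3 d replicate 3. It was 0.226 when only the libraries compared were fitted.

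PITA_000061123-RA went the other way. It stood at 4.11, 11.8 and 5.17 CPM at UV-B 3 d and at 97.6, 203 and 4.62 CPM at UV-C 3 d, so UV-C replicate 3 lay within the range of UV-B. At 7 d it stood at 1.24, 2.15 and 0.801 CPM under UV-B and 30.1, 0.545 and 16.8 CPM under UV-C. At 3 d the log2 fold change was 3.89 (SE 1.13, edgeR adjusted p = 0.0402), and the call was lost in 14 of 30 alternatives. On leaving out a library of 3 d the adjusted p in edgeR became 0.118, 0.0798 and 0.127 for UV-B replicates 1, 2 and 3, and 0.0792 and 0.144 for UV-C replicates 1 and 2. It lay between 0.0511 and 0.0544 on leaving out UV-B 7 d replicate 1 or 3, UV-C 7 d replicate 3 or any control library. It was 0.307 with limma voom, 0.172 when only the libraries compared were fitted and 0.0676 with the replicate block.

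**Figure D4:**
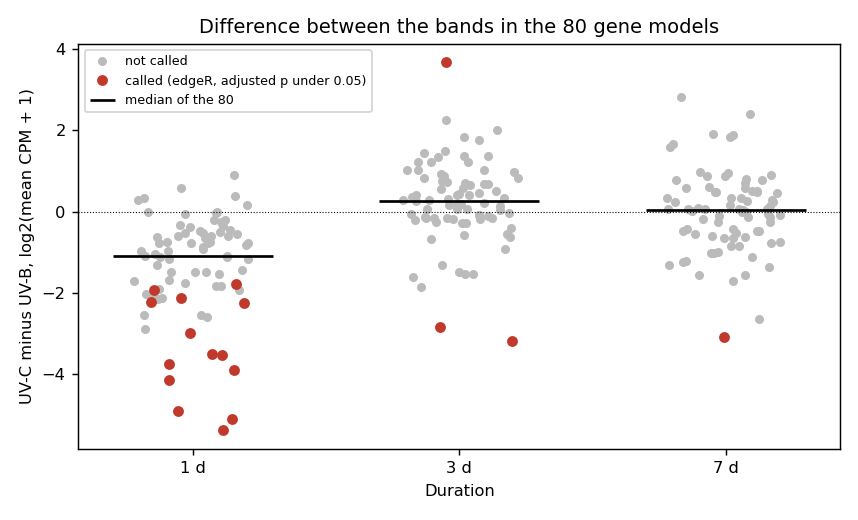
UV-C minus UV-B in log2(mean CPM + 1) at 1, 3 and 7 d; each point is 1 of the 80 gene models, placed at random sideways, red where edgeR called it, and the line is the median. The medians for 1, 3 and 7 d are -1.10, 0.26 and 0.05, and all 14 points called at 1 d lie below 0.

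At 7 d the gene models were spread evenly about equality between the bands. L was higher under UV-C in 42 and lower in 38, with a median difference of 0.05 (range -3.10 to 2.81). EdgeR called 0 higher and 1 lower, beside 3.26% and 2.83% of all genes tested, or 6.08% in either direction. With only the 7 d libraries of both bands fitted, 59 of the 80 passed the filter, and 2 were called higher and 3 lower. In that fit 8.62% of all genes were called in either direction. Counts this small do not show that the bands were alike. At an unadjusted p under 0.05 in the edgeR fit of all libraries 3 were higher and 3 lower, with no share of all genes taken at that threshold. DESeq2 called 1 higher and 2 lower, beside 9.47% of all genes in either direction. All 3 UV-C libraries lay above all 3 UV-B libraries in 6 (11.9%) and below them in 8 (18.2%). The edgeR fit of all libraries called PITA_000058311-RA, with a log2 fold change of -3.08 (SE 0.82, edgeR adjusted p = 0.0341). Its adjusted p became 0.0602 and 0.132 on leaving out UV-B 7 d replicates 2 and 3, and 0.0996, 0.13 and 0.0634 for UV-C 7 d replicates 1, 2 and 3 (edgeR), so the count was then 0. The shares of all genes called in those fits were 2.9%, 2.29%, 3.14%, 2.48% and 2.77%. The count was 2 with UV-B 3 d replicate 1 (5.93%) or UV-C 3 d replicate 2 (6.83%) left out and 3 with UV-C 3 d replicate 3 left out (7.09%). It was 4 (2 higher and 2 lower) with both lowest 3 d libraries left out (7.34%).

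Band preference ran together at 3 d and 7 d across the gene models. Pearson's r of the UV-C minus UV-B difference in L at 3 d with that at 7 d was 0.71 and Spearman's rho 0.68 over the 80, and 0.69 and 0.64 without the lowest 3 d library of each band. In 36 both differences were above 0 and in 24 both were below. The difference at 1 d went with that at 3 d with r of 0.50 and rho of 0.38, and 0.47 and 0.37 without those libraries. The durations share no library, but the rule tied the 3 d and 7 d means of each band together, and gene models are not independent replicates, so these are descriptions.

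**Figure D5:**
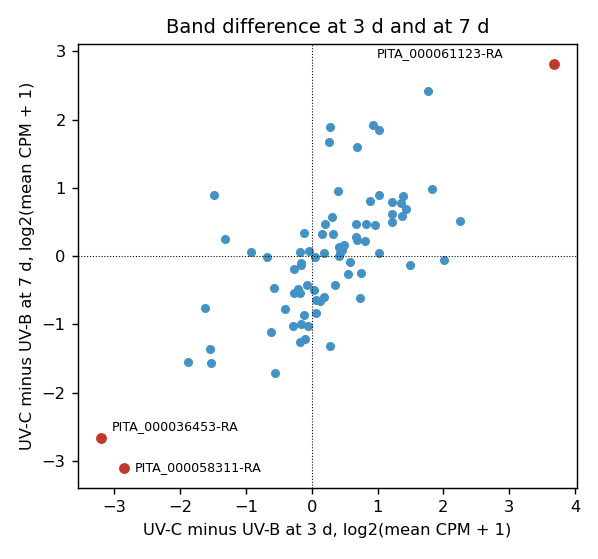
UV-C minus UV-B in log2(mean CPM + 1) at 3 d (x axis) against 7 d (y axis); each point is 1 of the 80 gene models, and those called between bands at 3 d are red and named. Pearson's r over the 80 is 0.71, and 36 lie at upper right and 24 at lower left.

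Outside the peak L was above the control in most gene models, though by a median of only 0.27 at UV-C 1 d. In 42 of the 80 edgeR called none of the 3 comparisons with the control, and the share of all genes was not taken. UV-B 1 d or 7 d minus the control is the difference of 2 terms of the score, and UV-C 7 d minus the control follows from 2 terms and the condition on UV-C 1 d. The counts are therefore a description from which nothing is read, and all 3 comparisons use the same control libraries. At UV-B 1 d L was above the control in 77 of 80, with a median of 1.57, and edgeR called 28 higher and 0 lower, where 20.6% of all genes tested were higher, 17.3% lower and 37.9% either. At UV-B 7 d it was above in 78, with a median of 1.39, and 26 were called higher and 0 lower, where the shares were 10.0%, 8.38% and 18.4%. At UV-C 7 d it was above in 79, with a median of 1.53, and 22 were called higher and 0 lower, where the shares were 6.36%, 6.14% and 12.5%. With only the groups of each comparison fitted, 41, 47 and 42 of the 80 passed the filter and 33, 38 and 36 were called, all higher. In these fits 39.7%, 28.2% and 27.1% of all genes were called in either direction. At an unadjusted p under 0.05 in the edgeR fit of all libraries the numbers higher were 44, 42 and 51 with 0 lower in each. The shares of all genes at that threshold were not taken, so nothing is read from these numbers. DESeq2 called 47, 42 and 51 higher with 0 lower, beside 40%, 22.3% and 17% of all genes in either direction.

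All 3 libraries were above the 3 controls in 50 of the 80 at UV-B 1 d (28.2% of genes tested), in 60 at UV-B 7 d (24.6%) and in 57 at UV-C 7 d (19.2%). At UV-C 1 d, a comparison that the rule bounded and that is not tested, L was above the control in 63, with a median of 0.27, and the libraries did not overlap in 13 (20.5%). Under UV-C L was higher at 7 d than at 1 d in 77 of 80, with a median difference of 1.12, and without overlap in 33 (9.42%). Under UV-B it was higher at 7 d than at 1 d in 39 and lower in 41, with a median of -0.08, and without overlap in 7 (15.1%) and 6 (16.9%). The difference between 7 d and 1 d within a band is built from terms of the score. Its counts in both bands are therefore also a description from which nothing is read.

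The counts called against the control moved with the libraries left out. Shares of all genes called in the same fit, in either direction, are in brackets. The 28 of UV-B 1 d became 14 (27.5%) without UV-B 1 d replicate 2 and 43 (38.8%) without UV-C 3 d replicate 3. Without the control replicates in turn it was 16, 16 and 17 (29.1%, 28.4% and 29.7%). The 26 of UV-B 7 d became 16 (13.2%) without UV-B 7 d replicate 2, and 13, 11 and 14 (11.4%, 10.2% and 12.9%) for the control replicates. The 22 of UV-C 7 d became 6 (5.49%) without UV-C 7 d replicate 1, 8 (7.21%) without replicate 3 and 38 (14.3%) without UV-C 3 d replicate 3. For the control replicates it was 4, 2 and 4 (5.78%, 5.1% and 7.37%). Without both lowest 3 d libraries the counts were 45, 42 and 48 (39.5%, 20.7% and 15.1%). With limma voom and group weights they were 7, 8 and 3 (39.3%, 27.7% and 23.8%), with 0 lower in each.

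PITA_000036453-RA and PITA_000058311-RA led these comparisons under UV-B. PITA_000036453-RA, with 0 counts in the control, was at least 419-fold higher at UV-B 1 d, 298-fold at UV-B 7 d and 42.2-fold at UV-C 7 d, taking 3 counts over the control group as the bound. PITA_000058311-RA had log2 fold changes of 8.22 (SE 1.19) at UV-B 1 d and 8.32 (SE 1.19) at UV-B 7 d.

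PITA_000039779-RA, also at 0 in the control, overlapped between the bands at 3 and 7 d. It stood at 3.69, 31.4 and 30.2 CPM at UV-B 3 d and 22.8, 35.3 and 0.132 CPM at UV-C 3 d, and at 1.92, 8.47 and 4.14 CPM and 2.34, 4.36 and 6.61 CPM at 7 d. At UV-C 7 d it was at least 33.4-fold above the control.

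The others that took the most counts were PITA_000042519-RA and PITA_000058693-RA, and CPM is not corrected for length, so levels are compared within a gene model. PITA_000042519-RA went from 0.798, 1.48 and 0.124 CPM in the control to 334, 246 and 35.3 CPM at UV-B 1 d and 111, 879 and 841 CPM at UV-B 3 d. Under UV-C it stood at 7.59, 33.4 and 1.45 CPM at 1 d and 192, 426 and 14.8 CPM at 3 d. PITA_000058693-RA was present before irradiation at 10.6, 7.65 and 19.1 CPM. It stood at 161, 733 and 715 CPM at UV-B 3 d and 233, 282 and 33.2 CPM at UV-C 3 d, and UV-B 3 d replicate 1 and UV-C 3 d replicate 3 were again the lowest.

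Membership itself rested on the libraries and on the pseudocount. Choosing again without 1 library kept between 59 (without UV-B 1 d replicate 2) and 80 of the gene models, and 34 were kept in all 21 such choices. Without UV-B 3 d replicate 2 and UV-C 3 d replicate 2, each the highest of its group, 62 and 61 were kept, and without both lowest 3 d libraries 72 were kept. A median in place of the mean kept 57.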

How the data were processed

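Per the labels' protocols, poly(A) RNA from foliage was read as 150 bp pairs and adapters were removed by Trimmomatic. FeatureCounts 1.5.3 appears in the submitters' processing notes. Which aligner, reference, annotation and strand setting were used is not given in the labels. The deposited table holds raw counts per gene model, not normalized by the authors. Near-identical gene copies may share or lose reads, so single gene models are uncertain.

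The rule was applied to CPM by column totals. Calls come from edgeR 4.0.16 under R 4.3.3 (quasi-likelihood F-test, two-sided, TMM, filterByExpr, 18265 genes, 1 mean per group over 21 libraries, Benjamini-Hochberg adjusted p under 0.05), and the script was tested on simulated data. The SE of a log2 fold change is its size over the root of the F statistic. Alternatives used DESeq2 1.42.0 and limma 3.58.1, other scalings and filters, a replicate block and leaving out each library. The alternative without UV-B 3 d replicate 1 and UV-C 3 d replicate 3 was chosen after seeing the data. Every pair of replicates differed by more than sampling noise (the chi-square over its degrees of freedom was 3.82 at the lowest and 60.17 at the highest).

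The 80 gene models and the comparisons were chosen with earlier results of these data known. Named are the 6 highest scores, the 2 gene models on either side of the threshold, the 3 with the highest mean CPM and, in each tested comparison and direction, up to 2 called with the largest fold change among those averaging at least 1 CPM, as well as those in counts of 5 or fewer. Pathway and marker lists were planned only for named genes and were not used, since identifiers come without names. The 4 h groups in the protocol are not analysed here. With these totals 1 CPM is fewer than 10 counts, so low levels are coarse.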

Additional observations from a re-analysis of the deposited data

Results flagged for a closer look

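A direct edgeR test of UV-C against UV-B called 14, 3 and 1 of the 80 at 1, 3 and 7 d. Over all genes tested the shares called were 21.4%, 8.60% and 6.08%. The 3 d libraries that chose the 80 also helped them pass the filter, so the counts are not read as shares of the 80. With only the groups compared fitted, 44, 80 and 59 passed and 16, 0 and 5 were called. In those fits the shares of all genes called were 11.1%, 0.193% and 8.62%. The test compares the responses to the bands because the control is common to both, and it is not independent of the choice. Of the gene models called, 4 are given here as the largest called differences. At 1 d the log2 difference was -8.28 in PITA_000003542-RA, where UV-C held only 2 counts, and -6.55 in PITA_000036453-RA. At 3 d it was -3.23 in PITA_000036453-RA, -2.82 in PITA_000058311-RA and 3.89 in PITA_000061123-RA, and at 7 d it was -3.08 in PITA_000058311-RA. PITA_000058311-RA was also called at 1 d, with -5.76. Picking the largest differences favours overestimates.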

How the results depend on the processing

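The 12 named fold changes past the threshold kept their sign in 30 alternatives each, 320 still called and 40 not, with 0 reversed. Members called, in the order UV-C minus UV-B at 1, 3 and 7 d, then UV-B 1 d, UV-B 7 d and UV-C 7 d minus control, numbered 14, 3, 1, 28, 26 and 22. Leaving out 1 library gave ranges of 4 to 23, 0 to 3, 0 to 3, 14 to 43, 11 to 38 and 2 to 38. Shares of all genes called at the ends of the range were 12.3% and 23.4% for UV-C minus UV-B at 1 d. Against the control they were 27.5% and 38.8% for UV-B 1 d, 10.2% and 20.2% for UV-B 7 d, and 5.1% and 14.3% for UV-C 7 d. The shares for the counts of 0 are given above. In the same order, 21.4%, 8.60%, 6.08%, 37.9%, 18.4% and 12.5% of all genes were called with all libraries in edgeR. DESeq2 gave 24, 3, 3, 47, 42 and 51 (24.8%, 12.3%, 9.47%, 40%, 22.3% and 17% of all genes). Limma voom with group weights gave 1, 2, 2, 7, 8 and 3 (14.6%, 3.28%, 10.5%, 39.3%, 27.7% and 23.8%). Without both lowest 3 d libraries there were 32, 3, 4, 45, 42 and 48 (24.3%, 4.01%, 7.34%, 39.5%, 20.7% and 15.1%). Without a filter there were 20, 3, 4, 45, 38 and 41 (8.34%, 2.88%, 2.31%, 15.7%, 7.28% and 4.81%). In fits of only the groups compared, as few as 41 of the 80 passed the filter. The numbers there were 16, 0, 5, 33, 38 and 36 (11.1%, 0.193%, 8.62%, 39.7%, 28.2% and 27.1%). The causes were not tested. The median log2 fold change of UV-C against UV-B at 3 d, 0.31, turned to -0.82 with limma voom. Other scalings and a filter of 1 CPM in 3 libraries stayed within 1.5 times. The replicate block gave 13, 2, 2, 26, 25 and 26 (20.6%, 8.09%, 5.57%, 37.2%, 18.1% and 12.2% of all genes). Deviations of same-numbered libraries from their group means correlated between -0.24 and 0.27. These values cannot show whether a shared number marks shared plants or a shared batch, which the labels do not state. Of the 80, leaving out 1 library kept 59 to 80 and a pseudocount of 0.1 CPM kept 49.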
